A study of Homo sapiens with 12 samples.

Results

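This account covers 34 genes of glucose use in IMR32, a human neuroblastoma cell line known to carry amplified copies of the transcription factor gene MYCN. They comprise glucose and lactate transporters, the enzymes of glycolysis, pyruvate dehydrogenase and its kinases, and enzymes of the pentose phosphate pathway. They were taken by gene symbol from a list of pathway genes, and all 34 were found among the 27514 genes of the deposited table. Expression was measured by RNA sequencing 72 h after siRNAs had been delivered by electroporation. There were 3 samples in each of 4 groups: siCtrl, given a control siRNA, siMYCN and siHAND2, each given an siRNA to the gene in its name, and siMYCN+siHAND2, given both and called the joint knockdown here. The titles mark 1 numbered siRNA for each target. Effects of an siRNA on other genes therefore cannot be told apart from loss of its target. HAND2 is a transcription factor of the sympathetic neuron lineage. All groups are the same line in the same medium, so they carry the genetic background of 1 tumour, and the labels do not say whether the samples of a group came from separate cultures. The p-values therefore measure only the spread between these samples, which may be technical.

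Values are CPM, reads scaled to the size of the library, and the estimated depth was 31.6 to 64.2 M reads per sample, so that 3 reads correspond to 0.0468 to 0.0949 CPM. MYCN stood at 1009 ± 42.6 CPM (SD, n = 3) in siCtrl and at 67.5%, 84.1% and 47.7% of that mean in siMYCN, siHAND2 and the joint knockdown. HAND2 stood at 239 ± 15.3 CPM in siCtrl and at 136%, 26.0% and 30.7% of it. After the rescaling described below these were 68.0%, 93.9% and 61.0% for MYCN and 137%, 29.1% and 39.2% for HAND2. MYCN in the joint knockdown against siMYCN then changed by −0.16 on the log2 scale (limma adjusted p 0.054), against −0.51 on deposited CPM (limma adjusted p 0.0007). HAND2 was then higher in the joint knockdown than in siHAND2, by 0.43 (limma adjusted p 0.0016). All 10 markers of sympathoadrenal neuroblastoma reached 1 CPM in at least 1 sample, with a summed level of 554 to 869 CPM over the 12 samples, although TH was low at 0.120 CPM in siCtrl. None of 4 leukocyte and none of 4 epithelial markers reached 1 CPM, and 2 of 3 endothelial and 2 of 6 mesenchymal markers did. The summed mesenchymal markers went from 15.6 to 18.6 CPM in siCtrl to 3.56 to 5.44 CPM in the joint knockdown, and their part in the results below was not tested. In bulk RNA, fewer cells of a kind and less RNA per cell cannot be told apart.

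Glycolysis splits glucose into pyruvate and yields ATP without oxygen. Hexokinase traps glucose as glucose 6-phosphate, phosphofructokinase commits it to the pathway, and the steps from triose phosphate to pyruvate return ATP. Pyruvate is reduced to lactate by lactate dehydrogenase or enters the mitochondrion through pyruvate dehydrogenase, which the pyruvate dehydrogenase kinases switch off by phosphorylation. The pentose phosphate pathway draws on glucose 6-phosphate for NADPH and ribose. Many of these genes are textbook targets of MYCN and its relatives and of the hypoxia-inducible factors, and several steps have isoenzymes whose use differs between proliferating and differentiated cells, such as ENO2, the neuronal enolase.

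In siCtrl the later steps of the pathway were the most abundant when levels were taken as CPM per kilobase of exon, the scale on which different genes can be compared. GAPDH stood at 1263, LDHB at 423, TPI1 at 218, PKM at 153, ENO1 at 141 and LDHA at 103 CPM per kb. The lowest levels were those of PDK1 at 1.09, PFKFB2 at 1.07, SLC2A3 at 0.767, PFKFB4 at 0.626 and SLC16A3 at 0.0817 CPM per kb. Of the other transporters SLC2A1 stood at 4.44 and SLC16A1 at 52.5. Isoenzymes of a step differed in level: ENO1 lay above ENO2 (7.63) and ENO3 (4.07), ALDOA (83.6) above ALDOC (1.56), HK2 (38.8) above HK1 (17.2), and PFKM (17.7) above PFKP (8.26) and PFKL (3.97). Exon lengths were the union of all annotated exons, which lowers the level of genes with many annotated transcripts.

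Reads outside the listed genes count in the denominator of CPM, and the share inside them was not equal: 65.1% ± 0.736 (SD, n = 3) for siCtrl, 62.4% ± 0.979 for siMYCN, 59.4% ± 2.39 for siHAND2 and 51.4% ± 7.04 for the joint knockdown, where samples 1, 2 and 3 had 58.4%, 51.4% and 44.3%. Most members followed the same order of these 3 samples in CPM. The median log2 fold change of all 12680 genes tested was 0.006, −0.14 and −0.28 in siMYCN, siHAND2 and the joint knockdown. Dividing each sample by its median ratio to the other samples brought these to 0.014, 0.012 and 0.045, and the calls against siCtrl that this rescaling changed are named below. A gene is termed called when its limma adjusted p is under 0.05 over all genes tested.

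The combined level of the 34 genes was lower in every knockdown sample than in siCtrl. Together they took 1.55%, 1.56% and 1.60% of the CPM of all listed genes in the siCtrl samples, 1.28%, 1.31% and 1.27% in siMYCN, 1.29%, 1.34% and 1.28% in siHAND2, and 0.989%, 0.925% and 0.824% with both siRNAs. No knockdown sample reached the siCtrl range, and every sample of the joint knockdown lay below every sample of the single ones. Each group's exact permutation p against siCtrl was 0.1 (two-sided), the smallest that 3 against 3 samples allow. This share does not depend on the reads outside the listed genes, but GAPDH, PKM and LDHB weigh heavily in it.

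**Figure D1:**
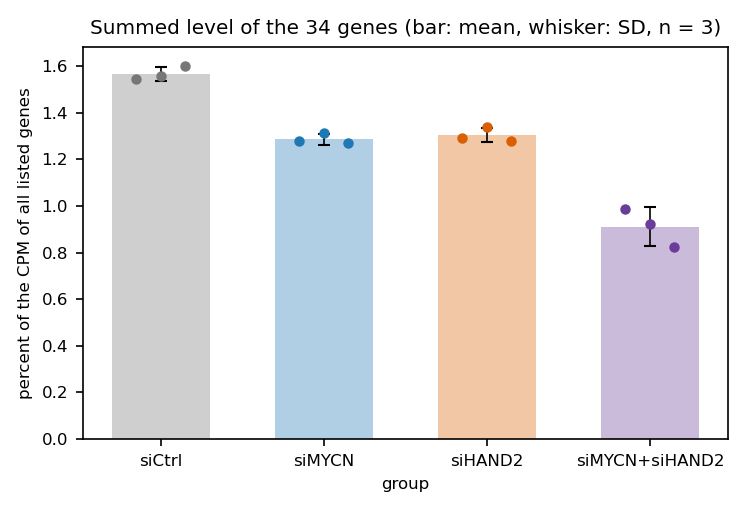
Summed CPM of the 34 genes as a percent of the summed CPM of all listed genes (vertical axis) in the 4 groups (horizontal axis); points are samples, bars the mean and whiskers the SD. The siCtrl samples lie between 1.55% and 1.60%, the single knockdowns between 1.27% and 1.34%, and the joint knockdown between 0.824% and 0.989%.

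Gene by gene, the change was a mixture of falls and rises. In siMYCN 5 members rose and 12 fell, where 17.4% of all genes tested were called higher and 16.3% lower. In siHAND2 3 rose and 15 fell, against 12.3% higher and 30.4% lower among all genes. In the joint knockdown 6 rose and 25 fell, against 17.4% and 50.1%. The median log2 fold change of the members was −0.22, −0.28 and −0.78. On the rescaled values 7 rose and 19 fell in siMYCN (25.4% and 22.5% of all genes), 5 rose and 15 fell in siHAND2 (25.9% and 24.9%), and 8 rose and 21 fell in the joint knockdown (37.7% and 33.0%), with medians of −0.21, −0.12 and −0.43. All 17 members called in siMYCN and all 18 in siHAND2 were called in the same direction after rescaling, and 27 of the 31 in the joint knockdown were.

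Sorting the members by their calls on deposited CPM gave a few blocks. ENO1, LDHA, LDHB, PDHA1, PDK1, PGK1, PKM, RPIA, SLC16A1 and TKT fell in all 3 knockdowns, and ENO2, ENO3 and HK1 rose in all 3, on the rescaled values too. ALDOA and GPI were called lower in siMYCN and the joint knockdown, and SLC2A3 and SLC16A3 higher in the same pair. PFKL, PFKP, PGAM1, TALDO1 and TPI1 were called lower in siHAND2 and the joint knockdown. In the joint knockdown alone ALDOC was called higher, and GAPDH, HK2, PDHB, PDK3, PFKFB3, PFKM, PGD and SLC2A1 lower. PDK2, PFKFB2 and PFKFB4 were called in none. Rescaling changed some of these blocks. In siMYCN it added SLC2A1, PFKM, PFKP, PFKFB3, TPI1, PGAM1 and PGD to the genes called lower, and ALDOC and PDK2 to those called higher. In siHAND2 it added PFKM and PDK2, both higher. In the joint knockdown it added PFKFB4 and PDK2, both higher, and ended the calls of HK2, PFKM, PFKFB3 and PDHB. Since all knockdowns share the siCtrl samples, these blocks are not independent between groups, and a gene called in 1 group and not in another is not thereby shown to differ between them.

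**Figure D2:**
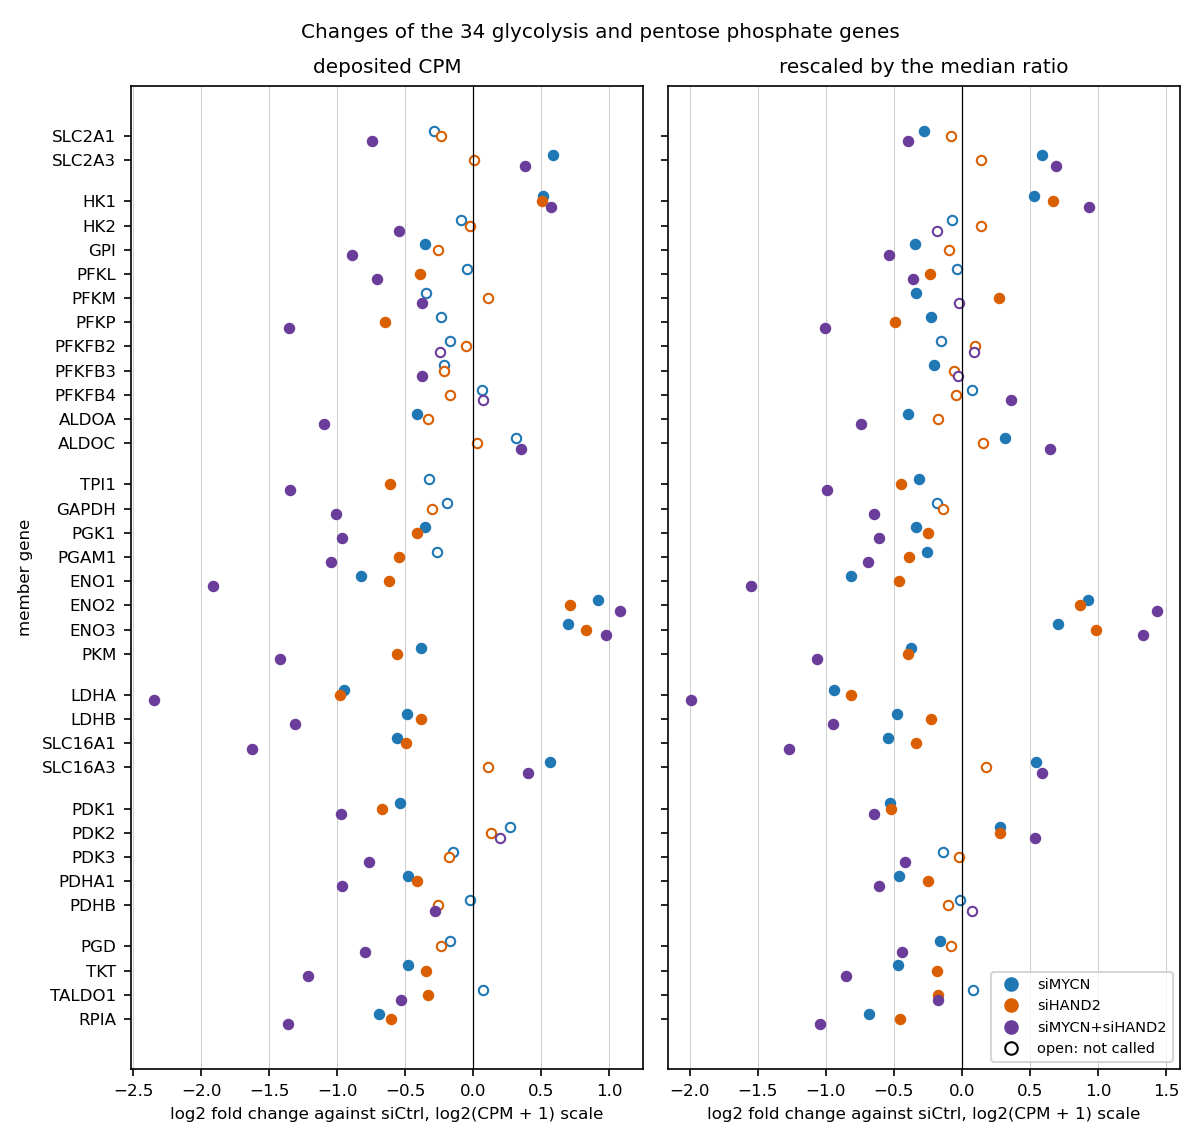
Log2 fold change against siCtrl (horizontal axis) of each of the 34 members (vertical axis, grouped by role from glucose transport at the top to the pentose phosphate pathway at the bottom) in siMYCN, siHAND2 and the joint knockdown, on deposited CPM (left) and after rescaling (right); filled points are called and open points not. LDHA and ENO1 lie farthest to the left, at −2.35 and −1.91 in the joint knockdown on deposited CPM, and ENO2 and ENO3 farthest to the right, at 1.08 and 0.98.

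Glucose enters through 2 of the members, and they moved in opposite directions. SLC2A1 encodes GLUT1, the general glucose transporter, and had 30.0, 27.3 and 30.9 CPM in the siCtrl samples, 23.7, 24.4 and 23.4 CPM in siMYCN, 25.1, 26.0 and 23.5 CPM in siHAND2 and 20.8, 17.3 and 14.0 CPM in the joint knockdown. The siCtrl samples were highest throughout, but on deposited CPM only the joint knockdown was called, at a log2 change of −0.74 (SE 0.12, adjusted p 6e-06 by limma), or −0.40 after rescaling. In siMYCN the change of −0.29 missed the threshold (limma adjusted p 0.066) and passed it with the replicate number as a block (limma adjusted p 0.037) and after rescaling (limma adjusted p 0.0019). SLC2A3, which encodes GLUT3, the high-affinity transporter of neurons, had 5.01, 6.09 and 5.58 CPM in the siCtrl samples, 8.02, 9.81 and 8.78 CPM in siMYCN, 5.82, 5.39 and 5.48 CPM in siHAND2 and 9.63, 8.40 and 5.19 CPM in the joint knockdown. All siMYCN samples lay above all siCtrl samples, while siHAND2 lay among them and the third joint knockdown sample fell back into the siCtrl range. SLC2A3 rose in siMYCN by 0.59 (SE 0.14, adjusted p 0.0025 by limma) on the log2 scale and in the joint knockdown by 0.38 (adjusted p 0.022 by limma), or 0.69 without overlap after rescaling, and it was higher in siMYCN than in siHAND2 by 0.59 (adjusted p 0.0025 by limma). The call in the joint knockdown was lost without siCtrl replicate 1 or joint replicate 1 or 2, and the value was 0.22 without joint replicate 1.

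The hexokinases, which phosphorylate glucose, also parted. HK1, the form of most tissues including brain, had 112, 127 and 117 CPM in the siCtrl samples, 171, 178 and 161 CPM in siMYCN, 174, 179.5 and 154 CPM in siHAND2 and 223, 185 and 133 CPM in the joint knockdown. Its knockdown samples all lay above siCtrl. The log2 fold changes were 0.52 (SE 0.14, adjusted p 0.0054 by limma) in siMYCN, 0.51 (adjusted p 0.0047 by limma) in siHAND2 and 0.57 (adjusted p 0.00081 by limma) in the joint knockdown, or 0.93 there after rescaling. HK2, the inducible form prominent in tumours, had 222, 249 and 217 CPM in the siCtrl samples, 216, 225 and 207 CPM in siMYCN, 262, 226 and 194 CPM in siHAND2 and 167, 179.5 and 129 CPM in the joint knockdown. In both single knockdowns it overlapped siCtrl, with changes of −0.09 and −0.02 that were not called. It fell in the joint knockdown, at −0.55 (SE 0.13, adjusted p 0.00073 by limma) on deposited CPM, and after rescaling the change was −0.19 and no longer called (limma adjusted p 0.078).

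GPI, which interconverts glucose and fructose 6-phosphate, stood at 78.1%, 84.0% and 54.7% of siCtrl. Its fall in the joint knockdown was −0.89 (adjusted p 2.3e-06 by limma), or −0.53 after rescaling, and that in siMYCN of −0.36 (adjusted p 0.043 by limma) was lost when any siCtrl or siMYCN sample, siHAND2 replicate 2 or joint replicate 2 was left out.

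The 3 phosphofructokinase genes, whose subunits mix in the tetramer of the committed step, responded differently to the 2 siRNAs. PFKM, the muscle type subunit, had 132, 129 and 124 CPM in the siCtrl samples, 103, 99.2 and 99.8 CPM in siMYCN, 143, 142 and 131 CPM in siHAND2 and 129, 100.0 and 74.8 CPM in the joint knockdown. The siMYCN samples lay below siCtrl and 2 of the siHAND2 samples above it, while the joint knockdown ran from below the siMYCN samples into the siCtrl range. PFKM was lower in siMYCN than in siHAND2, at −0.46 (SE 0.14, adjusted p 0.011 by limma). Against siCtrl neither single change was called on deposited CPM, with −0.35 (adjusted p 0.052 by limma) in siMYCN, which passed with the replicate block (limma adjusted p 0.015), and 0.11 (adjusted p 0.54 by limma) in siHAND2. After rescaling both were called, in opposite directions, at −0.34 and 0.27. The call in the joint knockdown, −0.38 (adjusted p 0.018 by limma), did not survive rescaling (−0.02) or leaving out siCtrl replicate 1 or joint replicate 3, without which it was −0.18. PFKM overlaps SENP1 on the other strand, and whether the counting used strand is not given in the sources used here.

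PFKP, the platelet type subunit, had 63.4, 66.9 and 62.3 CPM in the siCtrl samples, 53.9, 54.7 and 54.5 CPM in siMYCN, 43.5, 40.6 and 37.9 CPM in siHAND2 and 30.0, 25.5 and 19.1 CPM in the joint knockdown. The groups formed 4 steps with no overlap, siCtrl highest and the joint knockdown lowest. Its changes were −0.24 (adjusted p 0.16 by limma) in siMYCN, called after rescaling (−0.23, limma adjusted p 0.0065), −0.65 (SE 0.13, adjusted p 0.00019 by limma) in siHAND2 and −1.35 (adjusted p 7.6e-10 by limma) in the joint knockdown, the last −1.01 after rescaling. PFKL, the liver type subunit, had 35.9, 35.9 and 34.4 CPM in the siCtrl samples, 36.1, 33.6 and 33.2 CPM in siMYCN, 28.2, 27.1 and 25.0 CPM in siHAND2 and 27.2, 21.6 and 16.5 CPM in the joint knockdown. In siMYCN it stayed at 96.8% of siCtrl with overlapping samples, and the siHAND2 and joint knockdown samples all lay lower. The changes there were −0.39 (adjusted p 0.017 by limma) and −0.71 (adjusted p 3.5e-05 by limma), or −0.24 and −0.36 after rescaling, both still called, and the siHAND2 call was lost without siCtrl replicate 1 or 2 or siHAND2 replicate 3. Both subunits were higher in siMYCN than in siHAND2, PFKP by 0.41 (adjusted p 0.013 by limma) and PFKL by 0.35 (adjusted p 0.04 by limma), or by 0.26 and 0.20 after rescaling. Leaving out siHAND2 replicate 3 ended both of these calls, and that of PFKL was also lost without siCtrl replicate 1 or 2, any siMYCN sample, siHAND2 replicate 2 or joint replicate 2.

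The bifunctional enzymes that set fructose 2,6-bisphosphate, the activator of phosphofructokinase, were seldom called. PFKFB2 and PFKFB4 stood between 83.5% and 106% of siCtrl over the 3 knockdowns and were called in none on deposited CPM, and PFKFB4 was called higher in the joint knockdown after rescaling (0.36, limma adjusted p 0.0031). PFKFB3, the form with the strongest kinase activity, fell in the joint knockdown on deposited CPM, at −0.38 (adjusted p 0.0048 by limma), and stood at −0.03, not called, after rescaling. In siMYCN it was called lower after rescaling alone (−0.20, limma adjusted p 0.0078).

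Aldolase splits fructose 1,6-bisphosphate. ALDOA, the main form, had 315, 311 and 335 CPM in the siCtrl samples, 241, 246 and 235 CPM in siMYCN, 259.6, 256 and 246 CPM in siHAND2 and 190.1, 156 and 112 CPM in the joint knockdown. All knockdown samples lay below siCtrl and the joint knockdown lowest. Its fall was −0.41 (adjusted p 0.023 by limma) in siMYCN and −1.10 (SE 0.14, adjusted p 1.2e-07 by limma) in the joint knockdown, and the siMYCN call was lost without siCtrl replicate 1 or 3 or any siMYCN sample. In siHAND2 the change of −0.33 narrowly missed the threshold (limma adjusted p 0.051). It passed with the replicate block (limma adjusted p 0.02) and not after rescaling (−0.18, limma adjusted p 0.054). ALDOC, the brain form, was low, with 4.54, 3.29 and 4.41 CPM in the siCtrl samples, 5.67, 5.51 and 4.68 CPM in siMYCN, 3.77, 4.15 and 4.57 CPM in siHAND2 and 7.37, 5.16 and 4.19 CPM in the joint knockdown. Its siMYCN samples lay above siCtrl and the other groups overlapped it. The rise in the joint knockdown, 0.35 (adjusted p 0.033 by limma) on deposited CPM and 0.65 after rescaling, rested in CPM on few samples: without siCtrl replicate 2 it was 0.24 and without joint replicate 1 it was 0.16, neither called. After rescaling ALDOC was also called higher in siMYCN (0.32, limma adjusted p 0.045).

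**Figure D3:**
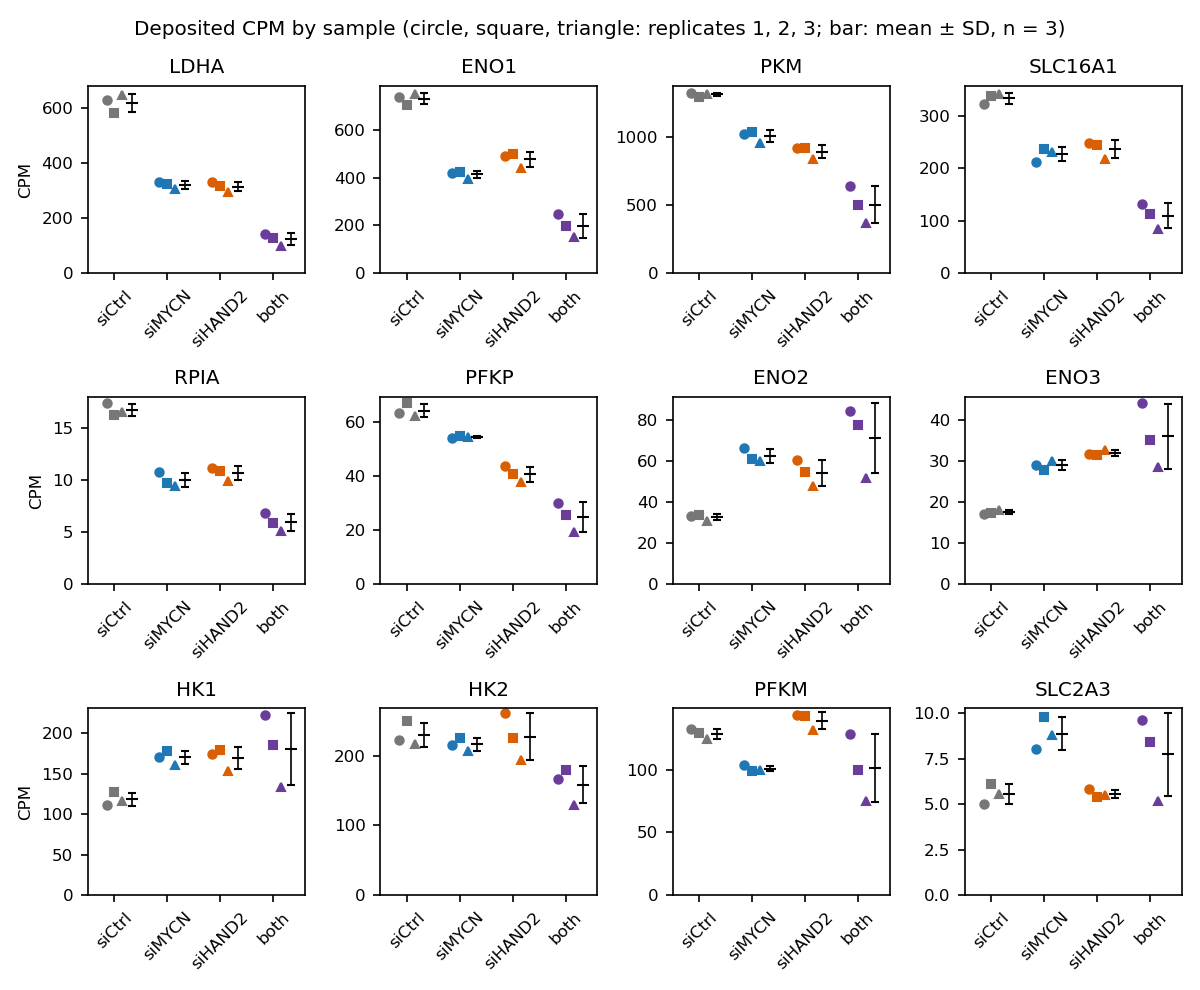
Deposited CPM (vertical axes, each from 0) of 12 members in siCtrl, siMYCN, siHAND2 and the joint knockdown ("both"); symbols are samples 1, 2 and 3 and the bar beside them is the mean ± SD. LDHA, ENO1, PKM, SLC16A1, RPIA and PFKP step down to the joint knockdown, ENO2, ENO3 and HK1 lie above siCtrl in all knockdowns, and PFKM is low in siMYCN and high in siHAND2.

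All 8 genes from triose phosphate to pyruvate were called in the joint knockdown on both scales, with ENO2 and ENO3 higher and the other 6 lower. TPI1, which interconverts the triose phosphates, had 582, 577 and 607 CPM in the siCtrl samples, 474, 482 and 455 CPM in siMYCN, 393, 405 and 361 CPM in siHAND2 and 290.1, 234 and 180.1 CPM in the joint knockdown. The 4 groups did not overlap. Its changes were −0.32 (adjusted p 0.063 by limma) in siMYCN, −0.61 (SE 0.13, adjusted p 0.00065 by limma) in siHAND2 and −1.35 (adjusted p 2.1e-09 by limma) in the joint knockdown, or −0.99 after rescaling, and the siMYCN change passed with the replicate block (limma adjusted p 0.026) and after rescaling (limma adjusted p 0.0011). GAPDH, often used as a reference gene, stood at 87.4%, 81.1% and 50.6% of siCtrl and fell in the joint knockdown, with a change of −1.0 (adjusted p 2.7e-07 by limma), or −0.64 after rescaling. PGK1, the first ATP-yielding step, stood at 78.4%, 75.1% and 52.0%, and PGAM1, the mutase that follows it, at 82.9%, 68.2% and 48.9%. The joint knockdown changes of the pair were −0.96 and −1.05, or −0.61 and −0.69 after rescaling, and PGAM1 was called in siMYCN after rescaling alone (−0.26, limma adjusted p 0.0043). The call of PGK1 in siMYCN (limma adjusted p 0.046) was lost without any siCtrl or siMYCN sample, siHAND2 replicate 2 or joint replicate 2, and in siHAND2 (limma adjusted p 0.015) without siCtrl replicate 1 or siHAND2 replicate 3. The siHAND2 change of −0.41 became −0.25 after rescaling, still called.

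Enolase, which makes phosphoenolpyruvate, was the step where isoenzymes diverged most in each knockdown, of the 12 pairs compared. ENO1, the ubiquitous form, had 742, 709 and 752 CPM in the siCtrl samples, 423, 425 and 397 CPM in siMYCN, 491, 501 and 443 CPM in siHAND2 and 249, 197 and 149.5 CPM in the joint knockdown. The groups formed 4 steps without overlap, in the order siCtrl, siHAND2, siMYCN and joint knockdown. The log2 fold changes were −0.82 (SE 0.14, adjusted p 4.8e-05 by limma), −0.62 (SE 0.14, adjusted p 0.00073 by limma) and −1.91 (SE 0.14, adjusted p 6.1e-12 by limma) in siMYCN, siHAND2 and the joint knockdown. ENO2, the neuronal form, had 33.3, 33.8 and 30.9 CPM in the siCtrl samples, 66.6, 61.4 and 60.1 CPM in siMYCN, 60.7, 54.6 and 47.8 CPM in siHAND2 and 84.5, 77.9 and 52.1 CPM in the joint knockdown. All knockdown samples lay above all siCtrl samples. It rose by 0.92 (SE 0.14, adjusted p 1.3e-05 by limma) in siMYCN, 0.71 (adjusted p 0.00019 by limma) in siHAND2 and 1.08 (adjusted p 2.1e-07 by limma) in the joint knockdown. ENO3, the muscle form, had 17.1, 17.3 and 18.0 CPM in the siCtrl samples, 29.1, 27.8 and 30.0 CPM in siMYCN, 31.7, 31.4 and 32.6 CPM in siHAND2 and 44.2, 35.2 and 28.5 CPM in the joint knockdown. It too lay higher in every knockdown sample than in any siCtrl sample, with changes of 0.70, 0.83 and 0.98 (limma adjusted p 9.1e-05, 5.5e-06 and 1.3e-07). After rescaling the joint knockdown values were −1.55 for ENO1, 1.43 for ENO2 and 1.33 for ENO3.

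PKM, which encodes the pyruvate kinases PKM1 and PKM2 by alternative splicing that this gene-level table does not resolve, had 1324, 1297 and 1317 CPM in the siCtrl samples, 1023, 1036 and 959 CPM in siMYCN, 915, 922 and 835 CPM in siHAND2 and 636, 502 and 367 CPM in the joint knockdown. The groups stepped down without overlap in the order siCtrl, siMYCN, siHAND2 and joint knockdown. The changes were −0.38 (adjusted p 0.038 by limma), −0.56 (adjusted p 0.0025 by limma) and −1.42 (SE 0.14, adjusted p 2.5e-09 by limma), and the last was −1.06 after rescaling. The siMYCN call was lost when any siCtrl or siMYCN sample was left out. GAPDH, PGK1, PGAM1, TPI1, ENO1, PKM, ALDOA, LDHA and LDHB have processed pseudogenes or near copies, and how the counting treated reads shared with them is not given in the sources used here, so their levels are uncertain to that extent.

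Lactate dehydrogenase interconverts pyruvate and lactate. LDHA had the largest log2 fold change of the 34 genes in each knockdown on deposited CPM with 1 added. The added 1 shrinks changes of low genes, and by mean CPM SLC16A3 changed more in siMYCN, to 207% of siCtrl. LDHA, the form that favours lactate, had 628, 581 and 645 CPM in the siCtrl samples, 332, 323 and 305 CPM in siMYCN, 329.6, 316 and 295 CPM in siHAND2 and 142, 126 and 98.4 CPM in the joint knockdown. The single knockdowns overlapped each other far below siCtrl, and the joint knockdown lay far below both. The log2 fold changes were −0.95 (SE 0.12, adjusted p 2.1e-06 by limma) in siMYCN, −0.98 (SE 0.12, adjusted p 6.7e-07 by limma) in siHAND2 and −2.35 (SE 0.12, adjusted p 3.2e-14 by limma) in the joint knockdown, levels of 51.8%, 50.7% and 19.8% of siCtrl. After rescaling LDHA was still at 25.1% in the joint knockdown, while in siHAND2 the rise of ENO3 (0.99) was then larger in size than the fall of LDHA (−0.82). LDHB, the form that favours pyruvate, had 1254, 1244 and 1286 CPM in the siCtrl samples, 897, 926 and 877 CPM in siMYCN, 938, 1039 and 924 CPM in siHAND2 and 634, 504 and 410.2 CPM in the joint knockdown. It fell in each group without overlap with siCtrl, with changes of −0.49 (adjusted p 0.0053 by limma), −0.39 (adjusted p 0.019 by limma) and −1.31 (adjusted p 2.4e-09 by limma). The siHAND2 change was −0.23 after rescaling, and its call on deposited CPM was lost without siCtrl replicate 1 or 3 or siHAND2 replicate 1 or 3.

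Lactate leaves the cell through monocarboxylate transporters. SLC16A1, which encodes MCT1, had 321, 337 and 341 CPM in the siCtrl samples, 212, 237 and 230.4 CPM in siMYCN, 248, 244 and 217 CPM in siHAND2 and 131, 112 and 83.5 CPM in the joint knockdown. The single knockdowns overlapped each other between siCtrl and the joint knockdown. Its changes were −0.56 (SE 0.13, adjusted p 0.0019 by limma), −0.50 (adjusted p 0.0036 by limma) and −1.63 (SE 0.13, adjusted p 5.3e-11 by limma), the last −1.27 after rescaling. SLC16A3, which encodes MCT4, the exporter of highly glycolytic cells, was the least abundant member, with 0.413, 1.05 and 0.802 CPM in the siCtrl samples, 1.53, 1.56 and 1.60 CPM in siMYCN, 0.728, 1.15 and 0.762 CPM in siHAND2 and 1.42, 1.53 and 0.975 CPM in the joint knockdown. The siMYCN samples lay above all siCtrl samples, and both other groups overlapped siCtrl, the joint knockdown no longer after rescaling. Its change was 0.56 (SE 0.14, adjusted p 0.0036 by limma) in siMYCN and 0.40 (adjusted p 0.016 by limma) in the joint knockdown, which was lost without siCtrl replicate 1 (0.26) or joint replicate 1 or 2. SLC16A3 was also higher in siMYCN than in siHAND2 by 0.45 (adjusted p 0.016 by limma), a call lost without siHAND2 replicate 1 or 3.

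Entry into the mitochondrion was measured through 3 kinases and both E1 subunits of pyruvate dehydrogenase. PDK1, a kinase that switches the complex off, had 16.7, 14.2 and 17.4 CPM in the siCtrl samples, 10.7, 10.5 and 11.1 CPM in siMYCN, 11.1, 9.42 and 8.74 CPM in siHAND2 and 8.49, 8.19 and 6.56 CPM in the joint knockdown. All knockdown samples lay below siCtrl. The changes were −0.54 (SE 0.12, adjusted p 0.00095 by limma), −0.67 (adjusted p 5.4e-05 by limma) and −0.97 (adjusted p 7.9e-08 by limma) in siMYCN, siHAND2 and the joint knockdown, the last −0.64 after rescaling. PDK2, the broadly expressed kinase, had 15.5, 15.7 and 15.1 CPM in the siCtrl samples, 19.7, 19.0 and 17.7 CPM in siMYCN, 18.5, 17.0 and 15.6 CPM in siHAND2 and 22.9, 18.2 and 13.5 CPM in the joint knockdown. Its siMYCN samples lay above siCtrl, the third siHAND2 sample overlapped it and the joint knockdown spanned it. No change was called on deposited CPM, and all 3 were called higher after rescaling (0.28, 0.28 and 0.53). PDK2 overlaps SAMD14 on the other strand. PDK3, the kinase with the highest activity, had 32.2, 33.5 and 27.3 CPM in the siCtrl samples, 28.0, 27.7 and 27.5 CPM in siMYCN, 32.7, 26.1 and 23.7 CPM in siHAND2 and 17.7, 22.7 and 14.0 CPM in the joint knockdown. It overlapped siCtrl in both single knockdowns and lay below it in the joint knockdown, where the change was −0.76 (SE 0.14, adjusted p 3.4e-05 by limma). After rescaling the joint knockdown overlapped siCtrl too, with a change of −0.42 that was still called (limma adjusted p 0.0074).

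PDHA1, the E1 alpha subunit that the kinases phosphorylate, stood at 71.6%, 75.1% and 52.0% of siCtrl and was called lower in all 3 groups, in siHAND2 not without siCtrl replicate 2 or siHAND2 replicate 3. Its siHAND2 and joint knockdown changes were −0.41 and −0.96, or −0.25 and −0.61 after rescaling. PDHB, the E1 beta subunit, stood at 98.3%, 83.1% and 82.6%. Its call in the joint knockdown, −0.28 (adjusted p 0.039 by limma), turned to 0.07, not called, after rescaling. It was also lost without siCtrl replicate 1 or 3, any siMYCN sample, siHAND2 replicate 2, or joint replicate 2 or 3.

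Of the 4 pentose phosphate enzymes, RPIA changed most in each knockdown. RPIA makes ribose 5-phosphate, the sugar of nucleotides, and had 17.3, 16.2 and 16.5 CPM in the siCtrl samples, 10.7, 9.71 and 9.43 CPM in siMYCN, 11.2, 10.9 and 9.88 CPM in siHAND2 and 6.79, 5.83 and 5.09 CPM in the joint knockdown. Its single knockdowns overlapped each other and lay between siCtrl and the joint knockdown. The changes were −0.69 (SE 0.11, adjusted p 3e-05 by limma), −0.61 (adjusted p 9.4e-05 by limma) and −1.36 (SE 0.11, adjusted p 6.3e-11 by limma), the last −1.04 after rescaling. TKT, the transketolase that links ribose to glycolysis, stood at 71.5%, 78.7% and 43.7% of siCtrl and was called lower in all 3, in siHAND2 (−0.35, or −0.19 after rescaling) not when any siCtrl or siHAND2 sample was left out. TALDO1, the transaldolase, stood at 105% in siMYCN and at 79.0% and 69.8% in siHAND2 and the joint knockdown, both called lower, the siHAND2 call again not without any siCtrl or siHAND2 sample. After rescaling these changes went from −0.33 and −0.53 to −0.18 and −0.18, still called, and the joint knockdown then overlapped siCtrl. TALDO1 was higher in siMYCN than in siHAND2 by 0.41 (adjusted p 0.014 by limma), or 0.26 after rescaling, which on deposited CPM was lost without siHAND2 replicate 3. PGD, an NADPH-making dehydrogenase of the oxidative branch, stood at 88.9%, 84.7% and 58.2% and was called on deposited CPM in the joint knockdown alone, at −0.79 (adjusted p 7.1e-06 by limma). After rescaling that change was −0.44, and the siMYCN change of −0.16 was called as well (limma adjusted p 0.045).

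The log2 ratio of a pair of isoenzymes within a sample is free of the scaling, and 12 such pairs were compared with siCtrl in the 3 knockdowns. In siMYCN 11 of the 12 ratios did not overlap with siCtrl, in siHAND2 8 and in the joint knockdown 10. Over all pairs of the 12678 tested genes above 0 CPM in every sample, 61.6%, 61.8% and 72.1% of ratios did not overlap, so the share of 8 in 12 in siHAND2 was near that of any pair. Every one of these had an exact permutation p of 0.1, the smallest that 3 against 3 samples can give, and a Benjamini-Hochberg adjusted p of 0.124 over the 36 tests, so none could pass 0.05. The ENO2 to ENO1 ratio was −4.48, −4.39 and −4.60 in siCtrl, −2.67, −2.79 and −2.72 with the MYCN siRNA, −3.02, −3.20 and −3.21 with the HAND2 siRNA and −1.56, −1.34 and −1.52 with both. It was higher in every knockdown sample, by 3.39-fold, 2.55-fold and 8.09-fold on average. The HK2 to HK1 log2 ratio was 0.99, 0.97 and 0.90 in siCtrl, 0.34, 0.34 and 0.36 with the MYCN siRNA, 0.59, 0.33 and 0.34 with the HAND2 siRNA and −0.42, −0.04 and −0.05 with both. HK2 thus exceeded HK1 in CPM in every siCtrl sample and lay below it in every joint knockdown sample.

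Other pairs shifted as well. ALDOC to ALDOA was higher by 0.79, 0.38 and 1.53 on the log2 scale in siMYCN, siHAND2 and the joint knockdown, and PDK2 to PDK1 by 0.86, 0.87 and 1.26. LDHB to LDHA, where LDHB is the more abundant, was higher by 0.46, 0.59 and 1.04. SLC2A3 to SLC2A1 was higher by 0.97 in siMYCN and 1.21 in the joint knockdown, and SLC16A3 to SLC16A1 by 1.71 and 2.51 (1.12 and 2.03 with 1 added to each CPM), while both overlapped siCtrl in siHAND2 (exact permutation p 0.2). PDK3 to PDK1 was higher by 0.42 and 0.55 in the single knockdowns and overlapped siCtrl in the joint one. The phosphofructokinase ratios took opposite directions in the single knockdowns. PFKL to PFKM was −1.88, −1.85 and −1.85 in siCtrl, −1.52, −1.56 and −1.59 with the MYCN siRNA, −2.34, −2.39 and −2.39 with the HAND2 siRNA and −2.24, −2.21 and −2.18 with both. It was higher than siCtrl in siMYCN and lower in siHAND2 and the joint knockdown, with no overlap. PFKP to PFKM differed by 0.11, −0.77 and −1.01 in the same order of groups. PFKFB3 to PFKFB4 was lower, at −0.30 and −0.48 in siMYCN and the joint knockdown, and PFKFB2 to PFKFB4 overlapped siCtrl in all 3.

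**Figure D4:**
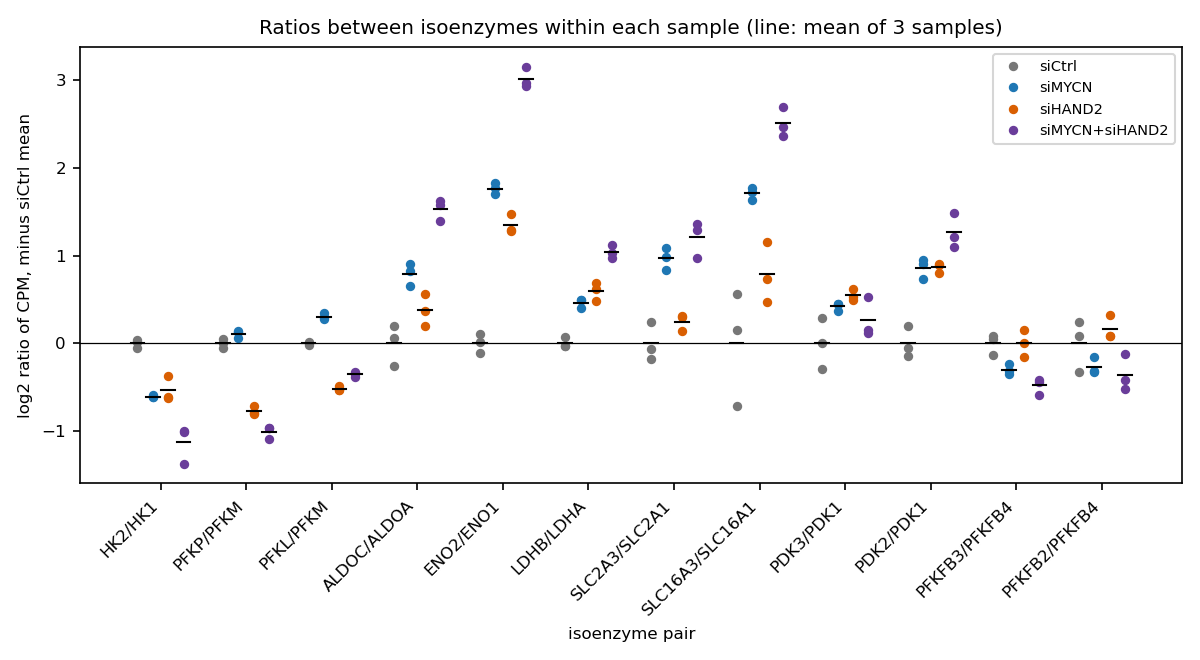
Log2 ratio of CPM between 2 isoenzymes in each sample, minus the siCtrl mean (vertical axis), for 12 pairs (horizontal axis) in the 4 groups; points are samples and lines the mean of 3. ENO2/ENO1 and SLC16A3/SLC16A1 reach 3.02 and 2.51 in the joint knockdown, and PFKL/PFKM is 0.30 in siMYCN and −0.52 in siHAND2.

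With both siRNAs many members were lower than with either alone. After rescaling others were called higher, but in shares near or below those of all genes tested. Against siMYCN the joint knockdown had 0 members higher and 22 lower, where 8.92% and 50.0% of all genes tested were. At an unadjusted p under 0.05 in limma 1 member was higher, ENO3, with a change of 0.28 (adjusted p 0.052 by limma). After rescaling 17 of the 22 were still called lower and 9 members were called higher (HK1, PFKM, PFKFB2, PFKFB3, PFKFB4, ALDOC, ENO2, ENO3 and PDK2), against 26.6% lower and 30.0% higher among all genes. Against siHAND2 it had 2 higher and 21 lower, against 8.75% and 31.5%, and 20 of the 21 were called lower after rescaling too. The members called higher then numbered 9 (SLC2A3, HK1, PFKFB4, ALDOC, ENO2, ENO3, SLC16A3, PDK2 and PDHB), against 26.1% higher and 23.6% lower among all genes. LDHA fell further, with changes of −1.40 (adjusted p 7.1e-10 by limma) from siMYCN and −1.37 (adjusted p 2.2e-08 by limma) from siHAND2, as did ENO1 with −1.09 and −1.29, and SLC16A1 with −1.07 and −1.13. The 2 members higher than in siHAND2 on deposited CPM were ENO2 and SLC2A3, and both calls were lost without siHAND2 replicate 2 or 3 or joint replicate 1 or 2, that of ENO2 also without siCtrl replicate 2. The single knockdowns differed directly in 6 members, with 5 higher in siMYCN (SLC2A3, PFKL, PFKP, SLC16A3 and TALDO1) and 1 lower (PFKM), where 26.1% and 8.98% of all genes were. Only 2 of these 6 calls, SLC2A3 and PFKM, held with each sample left out in turn. After rescaling the same 5 were higher and 12 were lower in siMYCN, against 22.4% and 22.2% of all genes. The 12 were SLC2A1, GPI, PFKM, PFKFB2, ALDOA, ENO1, ENO3, LDHB, SLC16A1, PDHA1, TKT and RPIA, so the balance of directions turned with the scale.

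The interaction asks whether the combined change departs from the sum of the single changes on the log2 scale. With limma it was called in 0 of the 34 members, against 0.355% of all genes called positive and 3.65% negative. At an unadjusted p under 0.05 in limma there were 15, all negative, and 29 of the 34 coefficients were below 0, with a median of −0.28 where that of all genes was −0.18. With that median most of all genes tested were below 0 too. Their shares below 0 and at the unadjusted threshold were not counted. SLC16A1 (−0.58 (SE 0.19, adjusted p 0.079 by limma)) and ENO3 (−0.55 (SE 0.17, adjusted p 0.07 by limma)) came closest. After rescaling both were called, where 1.67% of all genes were positive and 4.47% negative, at −0.39 and −0.36: SLC16A1 then lay lower than the sum of its 2 falls, and ENO3 lower than the sum of its 2 rises. Without joint replicate 1, the sample with the highest share of reads in listed genes of that group, 19 members were called on deposited CPM. Leaving out any other sample left the count at 0. How many of all genes were called without joint replicate 1 was not counted, so the 19 is no result about the members.

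Other genes of the same pathways were counted from lists, to be read against the shares of all genes called lower, which were 16.3%, 30.4% and 50.1% in siMYCN, siHAND2 and the joint knockdown, and 33.0% in the last after rescaling. Of 8 tested further genes of glycolysis and gluconeogenesis, 1 was called higher and 1 lower in siMYCN, 4 lower in siHAND2 and 6 lower in the joint knockdown, where 5 were lower and BPGM higher after rescaling. PGM1, which joins glycogen to glucose 6-phosphate, had 56.5 ± 1.20 CPM in siCtrl and 15.7 ± 5.73 in the joint knockdown (log2 fold change −1.84, limma adjusted p 1.2e-10). PGM2 and ADPGK changed by −1.38 and −1.01 there, or −1.04 and −0.67 after rescaling. Among 9 further glucose and monocarboxylate carriers 5 were lower and 2 higher in the joint knockdown on deposited CPM, and 2 lower and 3 higher after rescaling. SLC2A13, a proton and inositol transporter, changed by −1.26, SLC16A7, which encodes MCT2, by −1.07, and MPC1, a subunit of the mitochondrial pyruvate carrier, by −0.58. After rescaling MPC1 was at −0.24, overlapped siCtrl and was not called (limma adjusted p 0.08). Of 7 further genes of the pentose phosphate pathway 4 were lower in the joint knockdown, and 3 after rescaling. PRPS2, which turns ribose 5-phosphate into the nucleotide precursor PRPP, went from 36.5 ± 0.897 CPM in siCtrl to 20.4 ± 0.459 in siMYCN, 16.3 ± 0.845 in siHAND2 and 6.70 ± 1.89 in the joint knockdown (−2.32, limma adjusted p 9.1e-14). PRPS1 and RPE changed by −1.12 and −0.75, the latter by −0.40 after rescaling. Of 6 further genes of pyruvate dehydrogenase 5 were lower in the joint knockdown, among them the E2 subunit gene DLAT (−0.84), the E3 subunit gene DLD (−0.62) and the phosphatase gene PDP2 (−0.70). These 3 stayed called lower after rescaling, at −0.49, −0.26 and −0.36, where PDP1 was higher.

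Promoter sequences were searched for CACGTG, the E-box that MYCN and related proteins bind, because MYCN was a target of the experiment. RefSeq start sites gave windows for 31 of the 34 members. In the 250 bases before the start, 8 of the 31 (25.8%) held CACGTG in at least 1 window: ALDOA, ALDOC, GAPDH, HK2, LDHA, PDHB, PDK2 and PFKFB3. By window it was 13.3% of 60 member windows and 6.34% of all 35116 windows of the same length, and 11.6% of 9663 tested genes had it. All windows include those of genes that were not tested, and of all genes with a window 7.73% had it. The word ACGTG, the core of the site of hypoxia-inducible factors, which overlaps CACGTG, was present on either strand in 58.1% of the members and 29.4% of the tested genes. By window it was 35.0% of the member windows and 18.5% of all windows, again with genes not tested among the latter. The members had 60 windows for 31 genes, against 35116 for 27305 genes, and more windows raise a share counted by gene. On deposited CPM the genes with CACGTG included LDHA, which fell most, and ALDOA, called lower in siMYCN and the joint knockdown. On the same scale ALDOC, GAPDH, HK2, PDHB and PFKFB3 were not called in the single knockdowns, and PDK2 was not called at all. A match is a description of the letters and no evidence of binding. The 4 windows below show LDHA and HK2, each with 2 copies of CACGTG but with a large and no called change in the single knockdowns, and ENO1 and ENO2, which changed in opposite directions and hold none. Each is written 5′ to 3′ along the gene's strand, with CACGTG in capitals and GRCh37 coordinates, and was taken from RefSeq windows of GRCh38.p14 that matched GRCh37 at 1 place.
LDHA (chr11:18415860-18416109, plus strand): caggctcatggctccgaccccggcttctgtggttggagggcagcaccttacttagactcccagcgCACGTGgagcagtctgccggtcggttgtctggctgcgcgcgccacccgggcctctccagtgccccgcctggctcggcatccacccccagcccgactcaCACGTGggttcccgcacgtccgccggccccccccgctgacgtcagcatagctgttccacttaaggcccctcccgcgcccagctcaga
HK2 (chr2:75062047-75062296, plus strand): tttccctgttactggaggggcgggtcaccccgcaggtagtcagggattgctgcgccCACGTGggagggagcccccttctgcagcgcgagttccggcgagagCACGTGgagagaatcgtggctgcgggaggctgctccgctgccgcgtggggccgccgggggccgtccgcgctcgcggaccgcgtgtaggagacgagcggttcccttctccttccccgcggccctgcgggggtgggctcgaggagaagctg
ENO1 (chr1:8938746-8938995, minus strand): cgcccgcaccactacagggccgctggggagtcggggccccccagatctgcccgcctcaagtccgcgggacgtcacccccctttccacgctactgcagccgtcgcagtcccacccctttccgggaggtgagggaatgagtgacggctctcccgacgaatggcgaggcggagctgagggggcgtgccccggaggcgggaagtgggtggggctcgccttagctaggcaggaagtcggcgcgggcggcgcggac
ENO2 (chr12:7023494-7023743, plus strand): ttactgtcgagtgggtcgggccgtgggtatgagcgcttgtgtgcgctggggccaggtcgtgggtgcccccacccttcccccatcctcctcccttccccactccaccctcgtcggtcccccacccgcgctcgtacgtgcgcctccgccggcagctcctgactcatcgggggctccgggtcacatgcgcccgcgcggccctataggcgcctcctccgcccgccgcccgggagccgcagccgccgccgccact
The copies of CACGTG began at −185 and −87 in LDHA and at −194 and −149 in HK2, counted from the RefSeq start. The HK2 start lay 2515 bases inside the gene's start in the deposited table. The gene bodies were given as chromosome 11, 18415936 to 18429766, plus strand for LDHA, chromosome 2, 75059782 to 75120482, plus strand for HK2, chromosome 1, 8921059 to 8939152, minus strand for ENO1 and chromosome 12, 7023614 to 7032860, plus strand for ENO2 (hg19).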

How the data were processed

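RNA sequencing covered 12 samples in 4 groups of 3, placed by their titles. The authors deposited 1 table of CPM for 27514 genes. STAR 2.5.1, Partek and the hg19 (GRCh37) build are named per the submitters' processing notes. The counting tool, strand use, annotation and filters are not given in the sources used here. A constant of 0.0001 in every value was subtracted. Depth was estimated from the CPM worth of 1 read. Of values below 20 reads, 90.3 to 91.8% were whole (within 0.1 read), so no count test was run. No pair of samples was identical.

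Values were analysed as log2(CPM + 1), which understates changes of low genes, for 12680 genes whose mean CPM was 1 or more, which included all 34 members. limma 3.58.1 (R 4.3.3, eBayes with trend) was fitted to all samples with 8 residual degrees of freedom and 7 contrasts, two-sided, with Benjamini-Hochberg adjustment over all genes, and was tested on simulated data. Single values were compared by exact permutation tests.

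The members and lists were chosen with earlier results of these data known. Every sample's value is given for the 6 largest called rises and falls per knockdown and for isoenzyme pairs without overlap that differ by at least 0.5 (log2). Of each list the 3 genes that changed most in the joint knockdown are named. SENP1 and SAMD14 overlap members, as do SPSB2 (TPI1), MAP3K15 (PDHA1), ENO1-AS1, SLC2A1-AS1 and several copies at ALDOA. Exon lengths were from GENCODE release 44.

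Replicate numbers come from the titles. Deviations of same-numbered samples from their group means correlated at 0.44, 0.15 and 0.31 between siCtrl and siMYCN and at 0.33, 0.14 and 0.32 between siMYCN and siHAND2. The main limma fits and the permutation tests did not use this pairing, and the replicate block was run as an alternative. The other pairs of groups had at least 1 value under 0.1. Alternatives were the replicate block, 2 rescalings, another pseudocount, filters, fewer groups, no trend, a minimum fold change and samples left out.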

Additional observations from a re-analysis of the deposited data

How the results depend on the processing

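The number of members called stayed within 1.5 times of its value in most settings. The exceptions follow. For siMYCN against siCtrl it was 26 after rescaling by the median ratio, 27 with that and the replicate block, 27 with only the compared groups fitted and 27 without joint knockdown samples 2 and 3, a setting chosen after seeing the data. For siMYCN against siHAND2 these were 17 (5 higher and 12 lower), 18, 12 and 16, with 11 after scaling to the sum of listed genes. The interaction was called in 4 members with the replicate block, 2 with either rescaling and 4 with the median ratio and block. Of all genes tested, 0.994% were called positive and 9.12% negative with the block, and 1.29% and 4.98% after scaling to the listed sum. The share of all genes was not counted for the median ratio with block. Requiring a log2 fold change of at least 1 left 0 in siMYCN, 0 in siHAND2, 13 in the joint knockdown, 6 against siMYCN, 3 against siHAND2 and 0 between the single knockdowns. The share of all genes that met this minimum was not counted.

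With each sample left out in turn the counts ranged from 13 to 25 in siMYCN, 12 to 25 in siHAND2, 27 to 31 in the joint knockdown, 22 to 25 and 20 to 26 for the latter against siMYCN and siHAND2, 2 (without siHAND2 replicate 3) to 9 between the single knockdowns, and 0 to 19 (without joint replicate 1) for the interaction. The share of all genes called was not counted with samples left out, so these counts show only how far the calls depend on single samples. In the fits that left out 2 joint samples the lone one is assumed to vary like the other groups.

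With the replicate block the members called were 20, 20 and 32 for the knockdowns against siCtrl, 24 and 25 for the joint knockdown against siMYCN and siHAND2 and 6 between the single knockdowns. Of all genes, 20.2%, 14.2% and 18.4% were then called higher against siCtrl and 18.6%, 34.2% and 52.2% lower. For the joint knockdown it was 9.92% higher and 53.7% lower against siMYCN, and 10.2% and 35.9% against siHAND2. Between the single knockdowns it was 29.8% and 10.9%. The block ended no call. Between siCtrl and siMYCN, and between siMYCN and siHAND2, all 6 samples correlated best with their own number. For the 4 other pairs of groups it was 4 of 6 (siCtrl and siHAND2), 3 (siCtrl and joint), 2 (siMYCN and joint) and 2 (siHAND2 and joint).

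Changes of direction were found for PDHB in the joint knockdown, 0.071 by the median ratio with or without the block and 0.061 by the listed sum, and for PFKM there, 0.0005 without joint samples 2 and 3. The isoenzyme ratios that did not overlap siCtrl kept their direction with 1 added to each CPM, but not all kept their size. Leaving out samples or rescaling could not reverse a ratio without overlap. SLC16A3 to SLC16A1 in siMYCN went from 1.71 to 1.12 with 1 added to each CPM, where the SD was 0.652 in siCtrl and 0.0683 in siMYCN. Depth limits SLC16A3 most, at 0.413 to 1.60 CPM. The causes were not tested.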

Other observations

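Genes around the pathway moved in both directions. Of 17 genes of the tricarboxylic acid cycle, 4 were called lower in siMYCN, 6 in siHAND2 and 14 in the joint knockdown, where 16.3%, 30.4% and 50.1% of all genes tested were. After rescaling 11 were lower and IDH3G higher in the joint knockdown, against 33.0% and 37.7% of all genes. FH (fumarase), MDH2 (mitochondrial malate dehydrogenase) and SDHD (a subunit of succinate dehydrogenase) changed there by −1.07, −1.03 and −0.93 on the log2 scale (limma adjusted p 4.9e-08, 1.3e-07 and 4.3e-08), or by −0.71, −0.68 and −0.59 after rescaling.

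Of 16 tested targets of the hypoxia-inducible factors outside glycolysis, 3 were higher and 7 lower in the joint knockdown, where 17.4% and 50.1% of all genes were, and 8 higher and 6 lower after rescaling (37.7% and 33.0%). AK4, a mitochondrial adenylate kinase, went from 40.9 ± 1.15 CPM (SD, n = 3) in siCtrl to 17.8 ± 0.516, 16.0 ± 2.11 and 4.81 ± 0.911 in siMYCN, siHAND2 and the joint knockdown (−1.16, −1.31 and −2.86, limma adjusted p 6e-08, 3.3e-09 and 6.6e-16). P4HA1, a collagen prolyl hydroxylase, changed by −0.94, −0.96 and −1.94, and ERO1A, an oxidase of the endoplasmic reticulum, by −1.0 in the joint knockdown, or −0.65 after rescaling.

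Of 11 tested regulators of glucose use, 3 were higher and 4 lower in the joint knockdown, and 7 higher and 1 lower after rescaling, to be read against the same shares. TXNIP, a glucose-induced inhibitor of glucose uptake, rose from 50.9 ± 1.95 CPM in siCtrl to 121 ± 3.89 in siMYCN, 97.9 ± 3.30 in siHAND2 and 147 ± 30.4 in the joint knockdown (limma adjusted p 3.5e-08, 1.2e-06 and 7.9e-11). PPARGC1A, a coactivator of mitochondrial genes, rose by 0.37, 0.75 and 1.35 on the log2 scale. PRKAA2, a catalytic subunit of AMP-activated kinase, was lower in the joint knockdown (−0.78, limma adjusted p 1.4e-06, or −0.43 after rescaling).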
